A study of Homo sapiens with 22 samples.

Results

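The genes described here were 10 genes of the oxidative stress response: HMOX1, NQO1, GCLM, GCLC, TXNRD1, SRXN1, SLC7A11, NFE2L2, BACH1 and KEAP1. They were chosen by symbol, and all 10 were found among the 28063 genes of the count tables and among the 16794 genes that passed the filter on low counts. The series measured polyadenylated RNA by sequencing in 22 libraries of established human acute myeloid leukaemia lines, in 11 groups of 2. Of these lines, all of them KMT2A-rearranged, MOLM-13, MV-4-11 and THP-1 were each given 1 µM BRM014 for 24 h, 1 µM BRM014 for 72 h, or DMSO as solvent. BRM014 blocks SMARCA4 and SMARCA2, which are the ATP-driven motors of SWI/SNF chromatin remodellers. Further THP-1 groups were given 10 nM of the phorbol ester PMA for 48 h with 24 h of rest after its removal, or DB2313, a compound that blocks the transcription factor PU.1, at 3 µM for 72 h. All cells were grown in RPMI medium with 10% serum and were labelled wild type. The labels do not tell which DMSO libraries had 24 h and which 72 h of solvent, so that the DMSO group of each line served both times, and the 4 THP-1 treatments shared their DMSO libraries. Each line is 1 established culture model, and no label states that the paired libraries of a group came from separate cultures. The p-values therefore rest on the spread between these libraries, and that spread could be technical.

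NRF2, the product of NFE2L2, is a transcription factor that is kept scarce by KEAP1, an adaptor that hands it to a CUL3 ubiquitin ligase. When oxidants or electrophiles modify KEAP1, NRF2 accumulates and, paired with a small MAF protein, binds antioxidant response elements near genes for haem breakdown, quinone reduction, glutathione synthesis and thioredoxin recycling. BACH1 binds many of the same elements as a repressor and leaves them when haem is plentiful, and HMOX1 is the target best known for answering to it. In monocytes and macrophages HMOX1 is known for breaking down the haem of ingested red cells.

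Short DNA stretches from the start regions of 3 of the genes are shown first, since they hold the core of the antioxidant response element. These 3 genes differed between the 3 lines in their response to BRM014. So did NQO1, GCLC, SRXN1 and NFE2L2, whose windows did not hold this core. The motif searched was TGACNNNGC on both strands in RefSeq promoter windows of build GRCh38.p14, which run from 250 bases before to 50 bases after an annotated start. RefSeq windows were matched by symbol for 8 of the 10 genes, HMOX1 and SLC7A11 being the exceptions, and gave 13 windows. The motif stood in 4 of these 13 windows (30.8%) and in 13.3% of all 35116 windows of the same length. In the sequences below, capitals mark matches to the motif or to its reverse complement, written along the strand of the gene, and the base before the annotated start is -1.
GCLM, -120 to -1, chr1:93909431-93909550, minus strand: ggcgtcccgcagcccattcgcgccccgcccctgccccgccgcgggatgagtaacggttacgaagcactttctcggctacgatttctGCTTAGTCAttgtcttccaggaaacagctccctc
TXNRD1, upstream start, -120 to 10, chr12:104215659-104215788, plus strand: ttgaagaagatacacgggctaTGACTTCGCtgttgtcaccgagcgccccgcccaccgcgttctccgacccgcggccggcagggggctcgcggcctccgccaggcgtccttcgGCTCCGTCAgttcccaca
TXNRD1, downstream start, -111 to -85, chr12:104286921-104286947, plus strand: tggatttctGCTTTGTCAttctgactc
KEAP1, -63 to -37, chr19:10502808-10502834, minus strand: cttttattgTGACACGGCgggcgcccg
KEAP1, -40 to -14, chr19:10502785-10502811, minus strand: cccggctctGCTTAGTCAtggtgacct
The windows of NQO1, GCLC, SRXN1, NFE2L2 and BACH1 did not hold these letters. Neither did the KEAP1 window at its upstream start (chr19:10503307-10503606). Both KEAP1 matches came from the window at its downstream start (chr19:10502722-10503021). Stretches outside the windows were not searched, so a core farther from a start would not appear here. A match is a description of the letters, and nothing was measured here about what binds them.

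Between 15893489 and 21565666 reads per library fell in genes. Levels are given as CPM, counts scaled to a common total of gene reads per library, and differences as log2 fold changes ± standard error from 1 edgeR quasi-likelihood fit of all 22 libraries. A gene was called, and is said to have risen or fallen, when its p adjusted over all 16794 genes (Benjamini-Hochberg) was under 0.05. Replicate counts varied beyond counting error in all 11 pairs. Chi-square divided by its degrees of freedom was 3.14 to 10.7 in 10 pairs and 30.4 in the PMA pair. The 2 PMA libraries also had 16.02% and 12.4% of reads listed as matching no counted feature. That share was 18.2% and 18.4% after 72 h of BRM014 in MOLM-13 against 13.2% and 12.4% with DMSO, and its part in the results was not tested. All 7 markers of myeloid leukaemia lines (PTPRC, CD33, SPI1, MPO, CD4, FLT3, LYZ) reached 1 CPM in every group. Summed CPM of 10 lymphoid markers was 1.24 to 34.4 over the groups. Of 15 erythroid and megakaryocyte markers 6 to 11 were at 0 in a group, among them the red cell genes GYPB and HBA2 in all 11 groups, and their sum was 191 to 201 CPM with DB2313 against 12.2 to 13.3 CPM with DMSO in THP-1. Summed CPM of 10 epithelial and fibroblast markers was 151 to 155 after 72 h of BRM014 and 70.2 to 76.2 with DB2313 against 2.13 to 2.67 with DMSO in THP-1. In MV-4-11 this sum was 33.7 to 34.8 after 72 h of BRM014 against 2.54 to 3.39 with DMSO. Of the 10 markers, 3 reached 1 CPM in THP-1 after 72 h of BRM014 and 2 with DB2313, and 2 in MV-4-11 after 72 h. The part of these markers in the THP-1 and MV-4-11 results was not tested. In such bulk RNA, fewer cells of a type and less RNA per cell cannot be told apart.

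HMOX1, the inducible haem oxygenase that cleaves haem into biliverdin, iron and carbon monoxide, was nearly silent in DMSO and high in every treated group. It lies at chr22:35380361-35394214 on the plus strand of GRCh38 (GENCODE v29) and overlaps no other annotated gene. Its level was 18.9 and 21.7 CPM in MOLM-13 after 24 h of BRM014, 64.9 and 63.9 CPM after 72 h, and 0.533 and 1.07 CPM with DMSO. MV-4-11 libraries held 10.9 and 16.4 CPM after 24 h, 63.8 and 59.3 CPM after 72 h, and 0.611 and 0.814 CPM with DMSO. For THP-1 the values were 31.8 and 28.98 CPM after 24 h, 23.4 and 28.88 CPM after 72 h, and 1.88 and 1.24 CPM with DMSO. No treated library of any line came near the DMSO libraries, which rested on 9 to 30 reads of HMOX1 each. PMA took THP-1 to 88.9 and 85.2 CPM and DB2313 to 56.3 and 41.9 CPM, both above every BRM014 library of that line. Ordered by their means, the groups ran from PMA at the top through MOLM-13 and MV-4-11 at 72 h, DB2313, THP-1 at 24 h and 72 h, MOLM-13 and MV-4-11 at 24 h to the 3 DMSO groups. Of neighbours in that order, the MOLM-13 and MV-4-11 DMSO groups overlapped, while MOLM-13 and MV-4-11 at 72 h (lowest 63.9 and highest 63.8 CPM) and THP-1 at 24 h and 72 h (lowest 28.98 and highest 28.88 CPM) were barely apart.

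**Figure D1:**
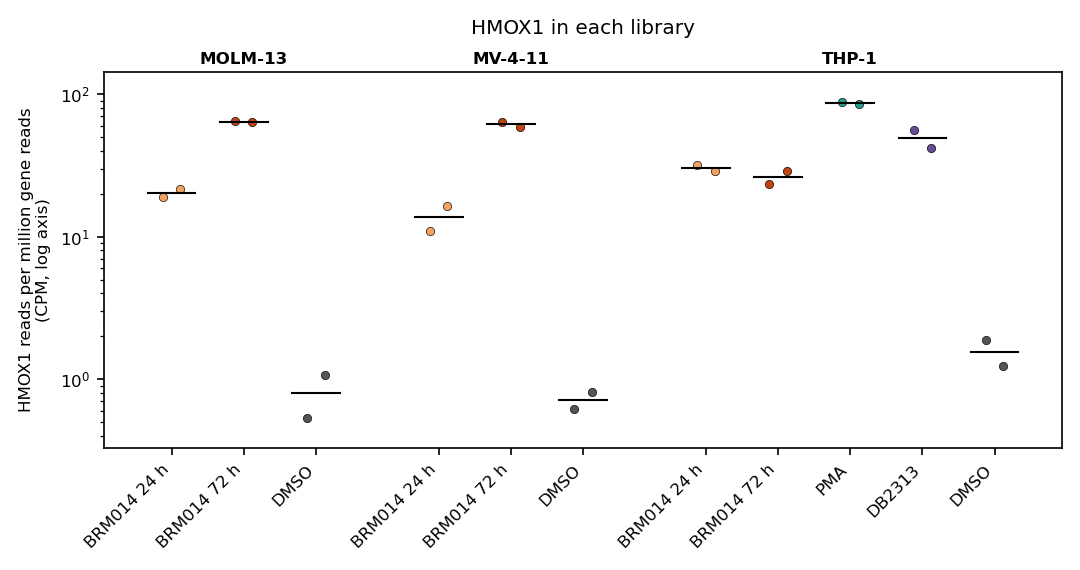
HMOX1 in each library, as CPM on a log axis, by line and treatment. Points are libraries and bars are means of 2. All treated libraries sit between 10.9 and 88.9 CPM and all DMSO libraries between 0.533 and 1.88 CPM.

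After 24 h of BRM014 HMOX1 rose by a log2 fold change of 4.54 ± 0.29 in MOLM-13 (adjusted p = 8.0e-11), 4.17 ± 0.29 in MV-4-11 (adjusted p = 3.56e-10) and 4.26 ± 0.24 in THP-1 (adjusted p = 1.65e-11). No difference between the 3 effects was called (adjusted p = 0.851). After 72 h the rise was 6.14 ± 0.27 in MOLM-13 (adjusted p = 6.98e-14), 6.35 ± 0.26 in MV-4-11 (adjusted p = 5.27e-14) and 4.004 ± 0.25 in THP-1 (adjusted p = 2.76e-11). These effects differed between lines (adjusted p = 0.00033). The THP-1 effect minus that of MOLM-13 was -2.13 on the log2 scale, and minus that of MV-4-11 -2.34. From one BRM014 time to the other HMOX1 rose further in MOLM-13 (72 h over 24 h, 1.60 ± 0.17, adjusted p = 1.77e-07) and in MV-4-11 (2.18 ± 0.17, adjusted p = 4.65e-09). In THP-1 the same comparison gave -0.26 ± 0.17 with a 95% interval of -0.61 to 0.10 (adjusted p = 0.264). Averaged over the lines, HMOX1 stood 25th of all 16794 genes by log2 fold change at 24 h (4.32 ± 0.16, adjusted p = 4.82e-15) and 26th at 72 h (5.50 ± 0.15, adjusted p = 1.62e-17). With few reads in DMSO, single control libraries moved the size: without MOLM-13 DMSO replicate 2 the 24 h and 72 h values for MOLM-13 were 5.13 and 6.72. THP-1 DMSO replicates 1 and 2, left out in turn, put the THP-1 72 h value at 4.30 and 3.71.

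Counts of called genes have to be read against how many genes the treatments moved. After 24 h of BRM014, 8 of the 10 genes rose and none fell in MOLM-13, where 22.7% of all genes tested rose, 23.5% fell and 46.2% were called in either direction. MV-4-11 also had 8 that rose and none that fell, with 23.6% of all genes higher, 22.4% lower and 46.1% called. In THP-1, 4 rose (HMOX1, NQO1, SLC7A11 and NFE2L2) and 2 fell (GCLM and TXNRD1), against 25.9% of all genes higher, 24.1% lower and 50% called. The median log2 fold change of the 10 genes was 0.70 in MOLM-13, 1.15 in MV-4-11 and 0.19 in THP-1, beside medians over all genes of 0 in MOLM-13 and MV-4-11 and 0.04 in THP-1.

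After 72 h, 6 rose and 2 fell in MOLM-13, where 30.3% of all genes were higher, 29.4% lower and 59.7% called. MV-4-11 had 7 that rose and none that fell (28.4% of all genes higher, 26.1% lower, 54.5% called). THP-1 had 5 that rose and 2 that fell (30.9% higher, 28.0% lower, 58.9% called). The medians of the 10 genes at 72 h were 0.51, 1.13 and 0.31 for MOLM-13, MV-4-11 and THP-1, beside 0, 0 and 0.06 over all genes. For MOLM-13 at 72 h the 2 genes that fell were GCLM and TXNRD1, and the call of GCLM was lost in several settings, which leaves 1. The THP-1 count of 5 at 72 h became 3 without THP-1 BRM014 72 h replicate 1, which ended the calls of SLC7A11 and BACH1. Averaged over the 3 lines, 8 rose and none fell at 24 h (28.9% of all genes higher, 27.1% lower, 56.0% called), and 8 rose and 2 fell at 72 h (34.9% higher, 30.4% lower, 65.3% called). The BRM014 effect differed between lines for 8 of the 10 genes at 24 h, where 43.5% of all genes did, and for 9 of the 10 at 72 h, where 52.9% did. HMOX1 and BACH1 were the genes without such a difference at 24 h, and BACH1 at 72 h.

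**Figure D2:**
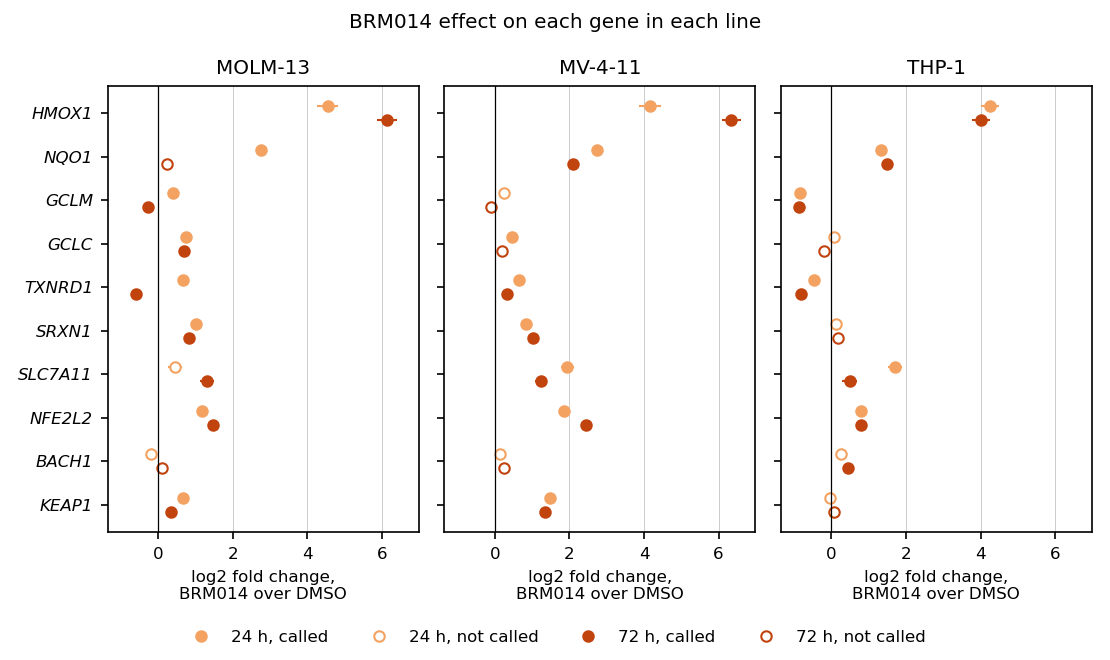
Log2 fold change of BRM014 over DMSO for the 10 genes in each line, after 24 h and 72 h. Points are fitted values, bars are standard errors, and open points are values with an adjusted p of 0.05 or more. HMOX1 lies far to the right in all panels, while GCLM and TXNRD1 lie left of 0 in THP-1.

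NQO1, a quinone reductase that is widely used as a readout of NRF2, rose in every line at 24 h and then parted. The gene lies at chr16:69706996-69726951 on the minus strand. MOLM-13 libraries held 71.3 and 67.1 CPM after 24 h of BRM014, 11.96 and 13.3 CPM after 72 h, and 9.37 CPM in both DMSO libraries. The 24 h libraries thus stood far above the rest, and the 72 h libraries just above DMSO. MV-4-11 had 142 and 154 CPM after 24 h, 91.5 and 97.9 CPM after 72 h, and 20.8 and 21.4 CPM with DMSO. THP-1 had 81.7 and 93.2 CPM after 24 h, 98.5 and 102 CPM after 72 h, and 33.3 and 33.9 CPM with DMSO, with no overlap between BRM014 and DMSO. At 24 h the rises were 2.76 ± 0.09 in MOLM-13 (adjusted p = 6.62e-15), 2.74 ± 0.08 in MV-4-11 (adjusted p = 1.76e-15) and 1.33 ± 0.08 in THP-1 (adjusted p = 4.08e-11). At 72 h they were 2.11 ± 0.08 in MV-4-11 (adjusted p = 2.81e-14) and 1.49 ± 0.08 in THP-1 (adjusted p = 3.83e-12), while MOLM-13 stood at 0.24 ± 0.10 (adjusted p = 0.0557). That MOLM-13 value passed the threshold without MOLM-13 BRM014 72 h replicate 1 (0.31, adjusted p = 0.0434), and with scaling by library size alone it was 0.43 (adjusted p = 0.0015). Between the times NQO1 fell by 2.52 ± 0.09 on the log2 scale in MOLM-13 (72 h over 24 h, adjusted p = 2.92e-14) and by 0.63 ± 0.08 in MV-4-11 (adjusted p = 1.32e-06), and was 0.16 ± 0.08 in THP-1 (adjusted p = 0.118). HMOX1 moved the other way over the same interval in MOLM-13 and MV-4-11, as given above. The effects differed between lines at 24 h (adjusted p = 5.92e-09) and 72 h (adjusted p = 2.3e-09).

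GCLC and GCLM encode the catalytic and the modifier subunit of glutamate-cysteine ligase, the rate-limiting enzyme of glutathione synthesis, and the 2 did not move as a pair. GCLC (chr6:53497341-53616970, minus strand) held 60.3 and 60.0 CPM in MOLM-13 after 24 h, 56.7 and 65.0 CPM after 72 h and 34.5 and 31.8 CPM with DMSO. The rise was 0.73 ± 0.10 at 24 h (adjusted p = 3.56e-06) and 0.68 ± 0.10 at 72 h (adjusted p = 4.25e-06). In MV-4-11 GCLC had 82.9 and 82.2 CPM after 24 h, 65.1 and 70.2 CPM after 72 h and 58.8 and 55.5 CPM with DMSO. It rose at 24 h (0.46 ± 0.09, adjusted p = 0.00038) and was not called at 72 h (0.19 ± 0.09, adjusted p = 0.106). With MV-4-11 libraries alone the 72 h value was called higher (0.15, adjusted p = 0.0413). In the main fit THP-1 gave no call for GCLC with BRM014: 41.8 and 45.4 CPM after 24 h, 36.8 and 36.7 CPM after 72 h and 39.7 and 40.5 CPM with DMSO, with values of 0.07 ± 0.10 and -0.21 ± 0.10 (adjusted p = 0.567 and 0.0746). The 72 h value was called lower with no filter (-0.24, adjusted p = 0.04865) and a minimum count of 50 (-0.24, adjusted p = 0.0495). It was also called lower without the PMA and DB2313 libraries (-0.25, adjusted p = 0.0096). The effects on GCLC differed between lines at 24 h (adjusted p = 0.00235) and at 72 h (adjusted p = 8.43e-05).

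GCLM (chr1:93885205-93909456, minus strand), whose upstream stretch with the match GCTTAGTCA is printed above, was lower in BRM014-treated THP-1, and in MOLM-13 was called higher at 24 h and slightly lower at 72 h. THP-1 libraries held 44.0 and 45.3 CPM after 24 h, 43.9 and 46.2 CPM after 72 h and 72.1 and 83.7 CPM with DMSO, with no overlap. It fell in THP-1 at 24 h (-0.85 ± 0.10, adjusted p = 9.72e-07) and 72 h (-0.88 ± 0.10, adjusted p = 4.38e-07). MOLM-13 had 26.9 and 27.2 CPM after 24 h, 18.3 and 17.1 CPM after 72 h and 18.3 and 19.3 CPM with DMSO. The 24 h value there was a rise of 0.40 ± 0.12 (adjusted p = 0.00733), which lost its call without MOLM-13 DMSO replicate 1 (0.35, adjusted p = 0.068). At 72 h GCLM was called lower in MOLM-13 (-0.28 ± 0.12, adjusted p = 0.0479), and leaving out any 1 of the 4 libraries compared ended that call, with values of -0.23 to -0.33. MV-4-11 had 37.0 and 39.5 CPM after 24 h, 30.7 and 28.97 CPM after 72 h and 32.5 and 29.5 CPM with DMSO, with no call at 24 h (0.23 ± 0.11, adjusted p = 0.0842) or 72 h (-0.11 ± 0.11, adjusted p = 0.416). The 24 h value there was called higher with library size alone (0.30, adjusted p = 0.0338) and with MV-4-11 libraries alone (0.21, adjusted p = 0.0413). The difference between lines was called at 24 h (adjusted p = 2.29e-06) and 72 h (adjusted p = 0.00059).

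TXNRD1 and SRXN1 serve the thioredoxin branch: TXNRD1 is the cytosolic thioredoxin reductase and SRXN1, sulfiredoxin, restores overoxidised peroxiredoxins. TXNRD1 (chr12:104215779-104350305, plus strand), with the stretches at its 2 starts printed above, had 394 and 366 CPM in MOLM-13 after 24 h, 171 and 162 CPM after 72 h and 230 and 212 CPM with DMSO. The 24 h libraries were the highest and the 72 h libraries the lowest of the line. It rose at 24 h (0.66 ± 0.07, adjusted p = 1.62e-07) and fell at 72 h (-0.60 ± 0.07, adjusted p = 2.85e-07). In MV-4-11 TXNRD1 had 404 and 416 CPM after 24 h, 318 and 334 CPM after 72 h and 244 and 256 CPM with DMSO, a rise at both times (0.64 ± 0.07, adjusted p = 2.17e-07, and 0.32 ± 0.07, adjusted p = 0.00053). THP-1 libraries held 171 and 177 CPM after 24 h and 138 and 138 CPM after 72 h against 224 and 238 CPM with DMSO, a fall at both times (-0.46 ± 0.07, adjusted p = 1.87e-05, and -0.83 ± 0.07, adjusted p = 4.12e-09). The effects differed between lines at 24 h (adjusted p = 1.92e-08) and 72 h (adjusted p = 1.75e-08). TXNRD1 overlaps EID3, a gene on the same strand that was counted too, so reads in the shared stretch are uncertain.

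SRXN1 (chr20:646615-653370, minus strand) rose in MOLM-13 and MV-4-11 and stayed near DMSO in THP-1. Its libraries held 67.7 and 71.1 CPM after 24 h, 65.3 and 62.3 CPM after 72 h and 31.4 and 32.2 CPM with DMSO in MOLM-13. MV-4-11 had 91.6 and 91.9 CPM after 24 h, 101 and 106 CPM after 72 h and 51.5 and 45.9 CPM with DMSO. Treated and DMSO libraries did not overlap in these lines, with rises of 0.999 ± 0.13 and 0.81 ± 0.13 in MOLM-13 (adjusted p = 2.35e-06 and 1.65e-05) and of 0.84 ± 0.13 and 1.03 ± 0.13 in MV-4-11 (adjusted p = 1.19e-05 and 5.99e-07) at 24 h and 72 h. THP-1 had 21.3 and 28.8 CPM after 24 h, 28.9 and 25.0 CPM after 72 h and 22.6 and 22.1 CPM with DMSO. The THP-1 values were 0.12 ± 0.14 with an interval of -0.16 to 0.41 at 24 h (adjusted p = 0.489) and 0.19 ± 0.14 with an interval of -0.10 to 0.48 at 72 h (adjusted p = 0.259). The difference between lines passed its test at 24 h (adjusted p = 0.00183) and 72 h (adjusted p = 0.00235).

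SLC7A11, the light chain of the cystine and glutamate exchanger that imports cystine for glutathione synthesis, was called higher than DMSO in all 3 lines at 72 h and in MV-4-11 and THP-1 at 24 h. The gene lies at chr4:138164097-138242349 on the minus strand and overlaps SLC7A11-AS1, which was counted too, and the strand setting of the counting is not given in the sources used here. MOLM-13 had 59.8 and 49.8 CPM after 24 h, 105 and 102 CPM after 72 h and 39.8 and 33.5 CPM with DMSO. MV-4-11 reached 488 and 399 CPM after 24 h and 272 and 270 CPM after 72 h, against 114 and 107 CPM with DMSO. THP-1 had 60.7 and 65.0 CPM after 24 h, 26.8 and 28.9 CPM after 72 h and 16.7 and 20.4 CPM with DMSO. The 72 h libraries were thus the highest in MOLM-13, and the 24 h libraries the highest in MV-4-11 and THP-1. In MV-4-11 it rose by 1.94 ± 0.17 at 24 h (adjusted p = 1.08e-08) and 1.24 ± 0.17 at 72 h (adjusted p = 2.55e-06). THP-1 gave a rise of 1.71 ± 0.19 at 24 h (adjusted p = 3.22e-07) and 0.49 ± 0.20 at 72 h (adjusted p = 0.042). That last call was lost without THP-1 DMSO replicate 1 (0.35, adjusted p = 0.24) or without either 72 h library (0.54 and 0.44). In MOLM-13 the 24 h value of 0.45 ± 0.18 missed the threshold (adjusted p = 0.0502), and the 72 h rise was 1.30 ± 0.18 (adjusted p = 2.47e-06). The 24 h value was called with DESeq2 (0.45, adjusted p = 0.0452), library size alone (0.58, adjusted p = 0.0164) and no filter (0.41, adjusted p = 0.000196). It was also called with a replicate block (adjusted p = 0.0435), MOLM-13 libraries alone (adjusted p = 0.00302) and without the PMA and DB2313 libraries (adjusted p = 0.00159). DESeq2 size factors in edgeR and a minimum count of 50 left it uncalled. Without MOLM-13 BRM014 24 h replicate 2 it was 0.58. Set against 24 h, the 72 h libraries of SLC7A11 were higher in MOLM-13 (0.85 ± 0.18, adjusted p = 0.00047) and lower in MV-4-11 (-0.70 ± 0.16, adjusted p = 0.00207) and THP-1 (-1.22 ± 0.19, adjusted p = 4.5e-05). The effects differed between lines at 24 h (adjusted p = 0.000167) and 72 h (adjusted p = 0.0263). The 72 h difference was not called without THP-1 BRM014 72 h replicate 1 (adjusted p = 0.0997) or 2 (adjusted p = 0.0552), or without THP-1 DMSO replicate 2 (adjusted p = 0.192).

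**Figure D3:**
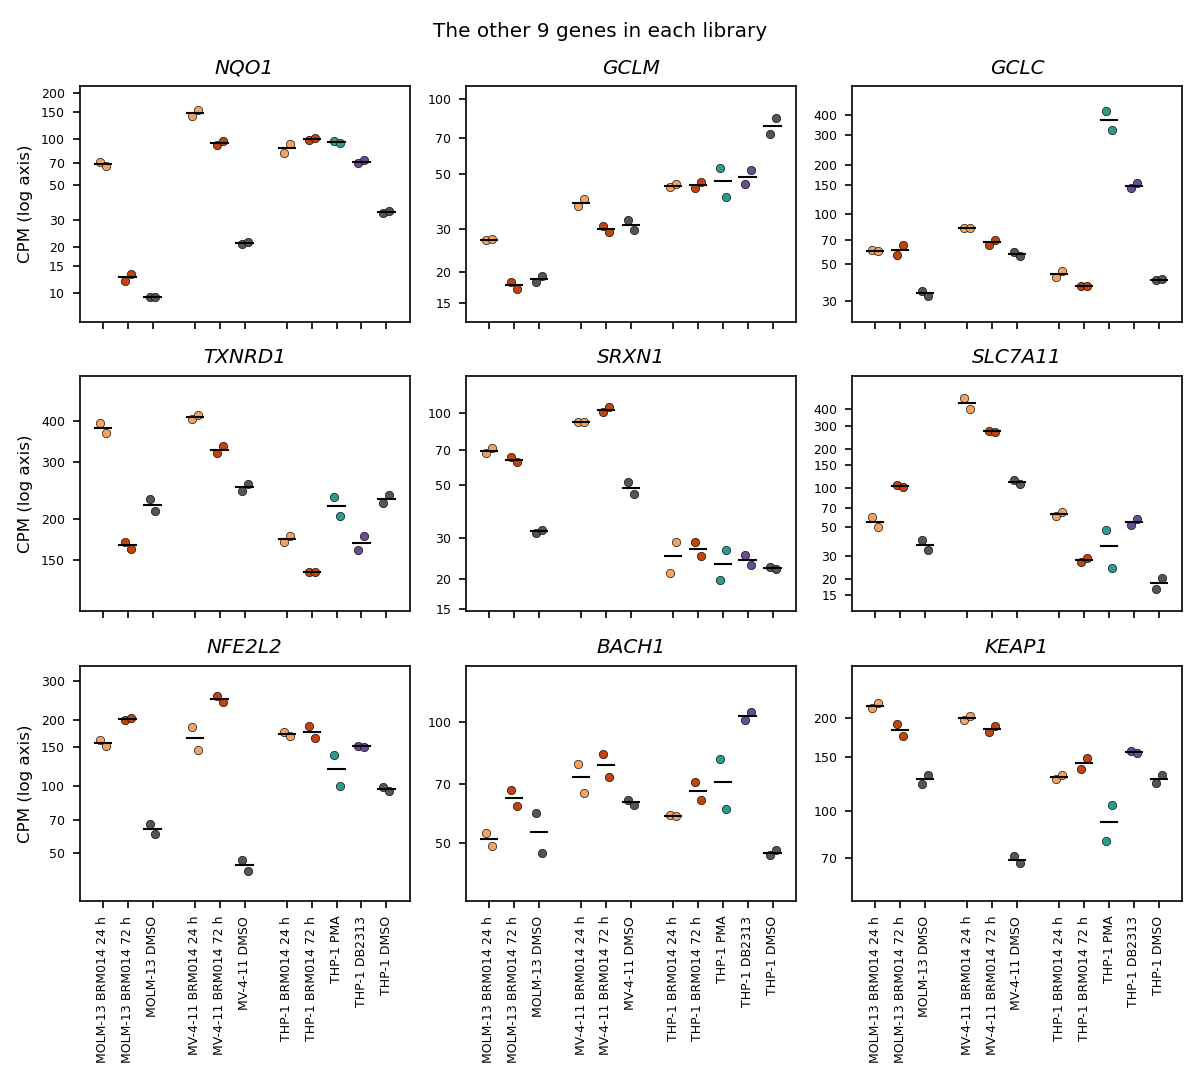
The other 9 genes in each library, as CPM on log axes, by line and treatment. Points are libraries and bars are means of 2. NFE2L2 is above DMSO in every BRM014 library, NQO1 falls back to 11.96 and 13.3 CPM in MOLM-13 at 72 h, and GCLM is highest in the THP-1 DMSO libraries.

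Of the genes that set NRF2 activity, NFE2L2 itself rose in every line at both times. The NFE2L2 gene lies at chr2:177227595-177392697 on the minus strand and overlaps AGPS on the other strand and the microRNA genes MIR3128 and MIR6512 on its own, all of them counted too. MOLM-13 libraries held 162 and 152 CPM after 24 h, 200 and 204 CPM after 72 h and 67.5 and 60.9 CPM with DMSO. In MV-4-11 they held 185 and 146 CPM after 24 h, 257 and 241 CPM after 72 h and 46.4 and 41.2 CPM with DMSO. THP-1 had 176 and 168 CPM after 24 h and 188 and 165 CPM after 72 h against 99.4 and 94.7 CPM with DMSO. No treated library overlapped with the DMSO libraries of its line. The rises were 1.17 ± 0.12 and 1.46 ± 0.12 in MOLM-13 (adjusted p = 8.36e-08 and 1.16e-09), 1.85 ± 0.12 and 2.45 ± 0.12 in MV-4-11 (adjusted p = 1.37e-10 and 9.85e-13) and 0.78 ± 0.12 at each time in THP-1 (adjusted p = 1.16e-05 and 8.26e-06). The effect differed between lines at 24 h (adjusted p = 0.00011) and 72 h (adjusted p = 2.71e-07). Across lines, the group with the lowest DMSO level, MV-4-11, had the largest rise and the group with the highest, THP-1, the smallest. Each rise was taken over that same DMSO level, so these orders are not independent. Mean levels after 24 h were 157 CPM in MOLM-13, 165 CPM in MV-4-11 and 172 CPM in THP-1.

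KEAP1 (chr19:10486120-10503741, minus strand), with its paired matches printed above, rose in MOLM-13 and MV-4-11. MV-4-11 held 198 and 204 CPM after 24 h, 180 and 189 CPM after 72 h and 71.1 and 67.4 CPM with DMSO, a rise of 1.47 ± 0.10 and 1.35 ± 0.10 (adjusted p = 3.05e-10 and 4.54e-10). MOLM-13 had 216 and 223 CPM after 24 h, 191 and 175 CPM after 72 h and 122 and 131 CPM with DMSO, a rise of 0.67 ± 0.10 (adjusted p = 1.05e-05) and 0.34 ± 0.10 (adjusted p = 0.00532). The 72 h call in MOLM-13 was lost without BRM014 72 h replicate 1 (0.28, adjusted p = 0.064) and without DMSO replicate 1 (0.27, adjusted p = 0.069). In THP-1 KEAP1 had 127 and 131 CPM after 24 h, 137 and 148 CPM after 72 h and 123 and 131 CPM with DMSO, with values of -0.03 ± 0.10 and 0.08 ± 0.10 (adjusted p = 0.84 and 0.517). The difference between lines was called at 24 h (adjusted p = 2.63e-07) and 72 h (adjusted p = 5.88e-07).

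BACH1 (chr21:29194071-29630751, plus strand), the repressor, was called in 1 of the 6 comparisons of BRM014 with DMSO within a line. MOLM-13 had 53.0 and 49.1 CPM after 24 h, 67.6 and 61.7 CPM after 72 h and 59.2 and 47.1 CPM with DMSO. MV-4-11 had 78.9 and 66.7 CPM after 24 h, 83.4 and 72.9 CPM after 72 h and 63.9 and 62.3 CPM with DMSO. THP-1 had 58.5 and 58.1 CPM after 24 h, 71.1 and 63.9 CPM after 72 h and 46.5 and 47.9 CPM with DMSO. Treated libraries lay among the DMSO libraries in MOLM-13 at 24 h and above them in MV-4-11, THP-1 and, at 72 h, MOLM-13. The fit called BACH1 in THP-1 at 72 h (0.43 ± 0.12, adjusted p = 0.0041), where leaving out BRM014 72 h replicate 1 ended the call (0.35, adjusted p = 0.054). Its other 5 values ran from -0.18 to 0.26 with adjusted p of 0.0784 to 0.547. Of these, MV-4-11 at 72 h was called higher with library size alone (0.31, adjusted p = 0.0391), a replicate block (0.25, adjusted p = 0.0339) and MV-4-11 libraries alone (0.21, adjusted p = 0.0416), and THP-1 at 24 h with library size alone (0.31, adjusted p = 0.0486) and a replicate block (0.26, adjusted p = 0.0337). Averaged over the 3 lines it was 0.07 ± 0.07 at 24 h (adjusted p = 0.434) and a rise of 0.26 ± 0.07 at 72 h (adjusted p = 0.00237). BACH1 and HMOX1 (above) were thus both higher in THP-1 at 72 h. No difference between lines was called for BACH1 at 24 h (adjusted p = 0.0908; without MOLM-13 DMSO replicate 2, called at 0.0302) or 72 h (adjusted p = 0.227). BACH1 overlaps 4 other counted genes, LINC00189, BACH1-IT2 and BACH1-IT3 on its own strand and GRIK1 on the other, so reads in shared stretches are uncertain.

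Changes between 24 h and 72 h of BRM014 went both ways among the 10 genes. In MOLM-13, 3 rose (HMOX1, SLC7A11 and NFE2L2) and 4 fell (NQO1, GCLM, TXNRD1 and KEAP1), where 20.8% of all genes were higher, 22.7% lower and 43.5% called. NFE2L2 lost its call without any 1 of the 4 libraries (0.24 to 0.35), and KEAP1 without the second library of either time (-0.32 and -0.27). In MV-4-11, 2 rose (HMOX1 and NFE2L2) and 5 fell (NQO1, GCLM, GCLC, TXNRD1 and SLC7A11), with 18.6% of all genes higher, 16.9% lower and 35.4% called. Without MV-4-11 BRM014 24 h replicate 2 the count that fell was 3, since GCLC (-0.29) and GCLM (-0.30) were then not called. GCLC was also not called without 24 h replicate 1 (-0.27, adjusted p = 0.0908) or 72 h replicate 1 (-0.23, adjusted p = 0.172), nor GCLM without 72 h replicate 2 (-0.31, adjusted p = 0.118). THP-1 had no gene that rose and 3 that fell (GCLC, TXNRD1 and SLC7A11), with 16.2% of all genes higher, 16.5% lower and 32.7% called. The GCLC value of -0.28 ± 0.10 there (adjusted p = 0.0319) was lost without any 1 of its 4 libraries. TXNRD1 fell between the times in each line, by 1.26 ± 0.07 in MOLM-13 (adjusted p = 2.07e-11), 0.32 ± 0.07 in MV-4-11 (adjusted p = 0.00107) and 0.37 ± 0.07 in THP-1 (adjusted p = 0.00044) on the log2 scale.

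PMA, which drives THP-1 cells towards macrophages, and DB2313 were each compared with the same THP-1 DMSO libraries as BRM014. The labels do not say whether the PMA and DB2313 libraries were grown or prepared together with those DMSO libraries or with the BRM014 libraries, so that treatment and any difference in preparation cannot be told apart. With PMA, 6 of the 10 genes rose (HMOX1, NQO1, GCLC, SLC7A11, NFE2L2 and BACH1) and 2 fell (GCLM and KEAP1), where 18.9% of all genes rose, 17.1% fell and 36.1% were called. HMOX1 rose by 5.91 ± 0.24 with PMA (adjusted p = 1.11e-13), and by 5.91 and 5.92 with PMA replicate 1 or 2 left out. GCLC had 421 and 322 CPM with PMA against 39.7 and 40.5 CPM with DMSO, a rise of 3.29 ± 0.10 (adjusted p = 2.59e-15). NQO1 had 96.7 and 94.7 CPM with PMA against 33.3 and 33.9 CPM with DMSO, a rise of 1.60 ± 0.08 (adjusted p = 4.2e-12). These genes stood clear of DMSO in both PMA libraries. SLC7A11 had 47.7 and 24.3 CPM with PMA (1.03 ± 0.20, adjusted p = 0.00031), and its value was 0.49 without PMA replicate 1 and 1.41 without replicate 2. GCLM had 52.7 and 40.4 CPM with PMA and fell by 0.66 ± 0.10 on the log2 scale (adjusted p = 3.81e-05). BACH1 had 81.2 and 60.8 CPM (0.67 ± 0.12, adjusted p = 0.00015). NFE2L2 had 138 and 100 CPM with PMA (0.38 ± 0.12, adjusted p = 0.015) and KEAP1 79.7 and 104 CPM (-0.38 ± 0.10, adjusted p = 0.00538). Both calls rested on PMA replicate 1, without which NFE2L2 stood at 0.16 (adjusted p = 0.30) and KEAP1 at -0.17 (adjusted p = 0.10). KEAP1 was also not called without THP-1 DMSO replicate 2 (-0.33, adjusted p = 0.062), nor was NFE2L2 without THP-1 DMSO replicate 1 (0.41, adjusted p = 0.051) or 2 (0.35, adjusted p = 0.095). TXNRD1 had 233 and 205 CPM with PMA (0.01 ± 0.07, adjusted p = 0.959) and SRXN1 19.9 and 26.7 CPM (0.15 ± 0.14, adjusted p = 0.443). SRXN1 was called higher without PMA replicate 1 (0.37, adjusted p = 0.04).

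With DB2313, 6 genes rose and 2 fell as well, where 35.9% of all genes rose, 29.5% fell, 65.4% were called and the median over all genes was 0.14. The genes that rose with DB2313 were the 6 named for PMA, while GCLM and TXNRD1 fell. HMOX1 rose by 4.93 ± 0.24 (adjusted p = 6.07e-13). GCLC had 143 and 155 CPM with DB2313 (1.82 ± 0.10, adjusted p = 2.3e-12), SLC7A11 52.3 and 58.1 CPM (1.49 ± 0.19, adjusted p = 1.05e-06) and NQO1 69.5 and 73.3 CPM (1.01 ± 0.08, adjusted p = 1.04e-09). BACH1 had 101 and 106 CPM, its highest level in the series (1.06 ± 0.12, adjusted p = 1.32e-07), and NFE2L2 152 and 151 CPM (0.57 ± 0.12, adjusted p = 0.00024). GCLM had 45.5 and 51.9 CPM (-0.76 ± 0.10, adjusted p = 2.27e-06) and TXNRD1 161 and 178 CPM (-0.52 ± 0.07, adjusted p = 1.85e-06). All these libraries lay outside the range of the DMSO pair. KEAP1 had 156 and 154 CPM (0.21 ± 0.10, adjusted p = 0.0693; called under 3 other scalings or tests, at most 0.28) and SRXN1 25.3 and 23.0 CPM (0.04 ± 0.14, adjusted p = 0.817).

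BRM014 and DB2313 could be compared directly in THP-1 at 72 h, at 1 µM and 3 µM. In BRM014 over DB2313, 1 gene was higher (NQO1, 0.48 ± 0.08, adjusted p = 1.89e-05) and 5 were lower, where 30.4% of all genes were higher, 30.9% lower and 61.3% called. GCLC was lower by the most (-2.03 ± 0.10, adjusted p = 4.96e-13), followed by SLC7A11 (-0.998 ± 0.19, adjusted p = 0.00011), HMOX1 (-0.92 ± 0.17, adjusted p = 7.61e-05), BACH1 (-0.63 ± 0.12, adjusted p = 9.24e-05) and TXNRD1 (-0.31 ± 0.07, adjusted p = 0.00094). No difference was called for GCLM (-0.12 ± 0.11, interval -0.34 to 0.10, adjusted p = 0.326). The doses and targets of the 2 compounds differ, and the 3 treatments of THP-1 share their DMSO libraries, so the values stand side by side without a test of likeness.

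**Figure D4:**
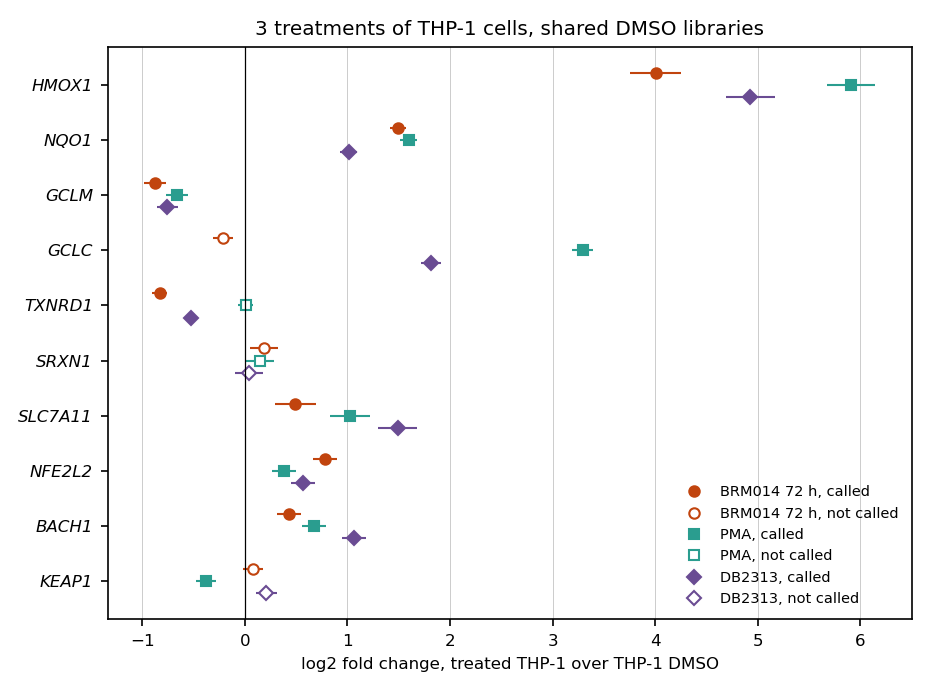
Log2 fold change over DMSO of the 10 genes in THP-1 after 72 h of BRM014, after PMA and after DB2313. Points are fitted values, bars are standard errors, and open points were not called. GCLC stands at 3.29 with PMA and 1.82 with DB2313 but left of 0 with BRM014, and GCLM is left of 0 with all 3 treatments.

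Per kilobase of annotated exon, which allows levels of different genes to be set side by side, HMOX1 was the lowest of the 10 in DMSO. With DMSO it had 0.222 and 0.445 CPM per kb in MOLM-13. The MV-4-11 libraries had 0.254 and 0.339 CPM per kb, and the THP-1 libraries 0.781 and 0.514 CPM per kb. In THP-1 with PMA HMOX1 reached 37.0 and 35.4 CPM per kb, a level like that of TXNRD1 in the same libraries (34.8 and 30.5 CPM per kb). SLC7A11 in MV-4-11 after 24 h of BRM014 had 50.6 and 41.4 CPM per kb, and KEAP1 there 52.5 and 54.2 CPM per kb. The order of groups differed by gene: the highest group mean over the lowest was 122-fold for HMOX1, 23.9-fold for SLC7A11, 15.8-fold for NQO1, 11.2-fold for GCLC and 2.2-fold to 5.69-fold for the other 6.

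Across the 11 groups, NFE2L2 had the pattern closest to that of HMOX1 among the 10 genes. Pearson's r of its mean log2 CPM with that of HMOX1 was 0.855, which placed it 59th of all genes tested. For the others r was 0.558 for NQO1, 0.517 for GCLC, 0.495 for BACH1, 0.401 for KEAP1, 0.18 for SLC7A11, 0.09 for SRXN1, -0.03 for GCLM and -0.21 for TXNRD1. The 5 genes with the highest r over the 11 groups were TMED7 (0.952), a cargo receptor of the secretory pathway, SMPD1 (0.94), the lysosomal acid sphingomyelinase, RAP2C-AS1 (0.931), SERINC1 (0.924) and C12orf49 (0.923). SMPD1 averaged 40.6, 48.4 and 5.61 CPM in MOLM-13 after 24 h, after 72 h and with DMSO, and 46.1, 74.8 and 17.1 CPM in THP-1 with PMA, DB2313 and DMSO. TMED7 moved over a narrower range, from 49.5 CPM in MOLM-13 DMSO to 91.9 CPM in THP-1 with PMA. These r values describe 11 group means, which share lines.

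**Figure D5:**
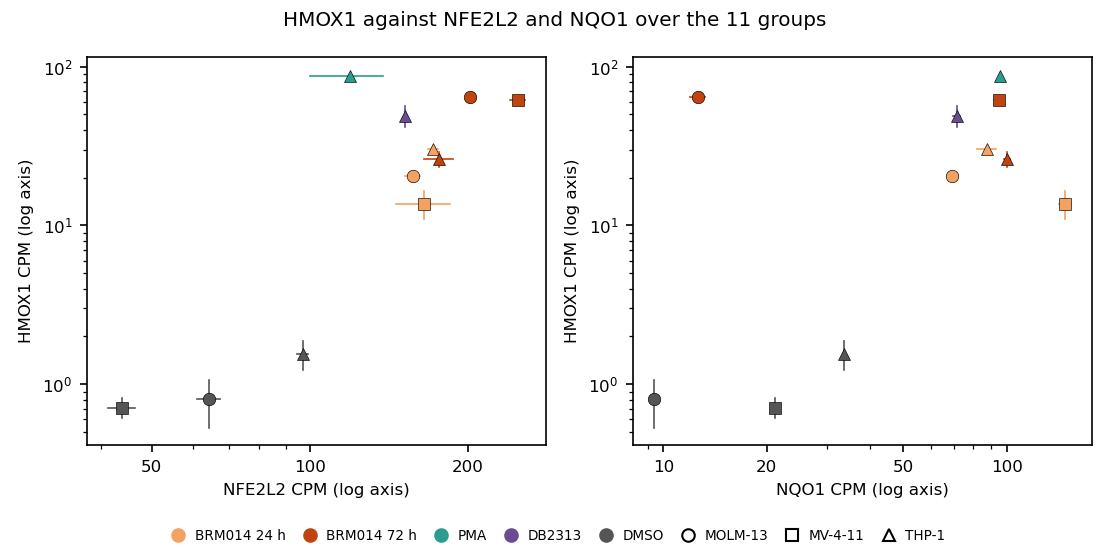
HMOX1 against NFE2L2 (left) and NQO1 (right) in the 11 groups, as CPM on log axes. Symbols are group means, colours are treatments, shapes are lines, and bars span the 2 libraries. MOLM-13 at 72 h has 64.4 CPM of HMOX1 with NQO1 at 12.6 CPM.

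Other genes known as NRF2 targets went in both directions, with a few large rises. Of 35 such genes 33 were tested. At 24 h of BRM014, 13 rose and 8 fell in MOLM-13, beside 22.7% and 23.5% of all genes. The list median there was 0.32 (0.28 with a gene that was at 0 in a group set at its bound). MV-4-11 had 11 higher and 9 lower (list median 0.02), beside 23.6% and 22.4% of all genes. THP-1 had 10 higher and 11 lower (list median -0.01), beside 25.9% and 24.1%. At 72 h MOLM-13 had 20 higher and 8 lower (30.3% and 29.4% of all genes). MV-4-11 had 15 higher and 9 lower (28.4% and 26.1%), and THP-1 had 14 higher and 11 lower (30.9% and 28.0%). The list medians at 72 h were 0.73, 0.27 and 0.16 in that order. Counts for the later lists have to be read against the same shares. FTH1, the ferritin heavy chain that stores the iron released from haem, had 3286 and 3189 CPM after 72 h of BRM014 against 333 and 384 CPM with DMSO in MOLM-13, 4031 and 4080 against 438 and 454 CPM in MV-4-11, and 1633 and 1766 against 234 and 222 CPM in THP-1. Averaged over the lines, FTH1 rose by 1.43 ± 0.06 at 24 h (adjusted p = 2.5e-14) and 2.97 ± 0.06 at 72 h (adjusted p = 2.2e-19). SQSTM1, the autophagy adaptor p62 that also binds KEAP1, had 2451 and 2531 CPM after 72 h in MV-4-11 against 96.65 and 90.02 CPM with DMSO (4.68 ± 0.09, adjusted p = 5.7e-19), and rose by 3.14 ± 0.08 in MOLM-13 (adjusted p = 3.1e-17) and 1.22 in THP-1. Among the genes that fell were TRIM16L in MOLM-13 (-1.68 ± 0.26, adjusted p = 1.89e-05) and MV-4-11 (-1.36 ± 0.24, adjusted p = 7.3e-05) at 24 h, and IDH1, the cytosolic isocitrate dehydrogenase, in THP-1 at 24 h (-2.25 ± 0.09, adjusted p = 1.5e-13). With PMA 14 rose and 4 fell (18.9% and 17.1% of all genes). FTH1 rose by 2.31 ± 0.10 (adjusted p = 6.9e-13) and ABCC3, an export pump, by 3.76 ± 0.22 (adjusted p = 1.0e-09). With DB2313 18 rose and 11 fell (35.9% and 29.5% of all genes). The aldo-keto reductases AKR1C3 (7.48 ± 0.38, adjusted p = 1.3e-12) and AKR1C2 (5.15 ± 0.34, adjusted p = 7.2e-11) rose most. AKR1C3 had 39.4 and 36.0 CPM with DB2313 against 0.188 and 0.198 CPM with DMSO in THP-1. The AKR1C genes are near-identical copies, so reads may be shared between them.

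Haem handling genes other than HMOX1 showed no common direction. Of 17 tested, 5 rose and 5 fell in MOLM-13 at 24 h, where the median was -0.02. MV-4-11 had 1 higher and 5 lower (median -0.01), and THP-1 had 5 higher and 6 lower (median -0.14). BLVRB, a biliverdin reductase acting on the product of haem cleavage, rose over the lines by a mean of 0.79 ± 0.09 at 24 h (adjusted p = 2.5e-07) and 2.16 ± 0.09 at 72 h (adjusted p = 1.1e-14). ALAD, an early enzyme of haem synthesis, had 411 and 411 CPM after 72 h against 65.6 and 70.7 CPM with DMSO in MOLM-13 (2.40 ± 0.07, adjusted p = 3.6e-16). LRP1, a receptor for haem-hemopexin complexes among many ligands, rose in THP-1 with BRM014 at 72 h (3.52 ± 0.19, adjusted p = 2.8e-12), PMA (4.25 ± 0.19, adjusted p = 6.0e-13) and DB2313 (3.86 ± 0.19, adjusted p = 6.5e-13). HMOX2, the constitutive haem oxygenase, was called lower in 5 of the 6 comparisons of BRM014 with DMSO within a line, by a mean over the lines of -3.26 ± 0.44 at 24 h (adjusted p = 1.8e-06) and -3.48 ± 0.43 at 72 h (adjusted p = 3.3e-07). The exception was MV-4-11 at 24 h (-1.34 ± 0.62, adjusted p = 0.083), and PMA gave -4.13 ± 0.78 (adjusted p = 0.00027). It had few and uneven reads, with 0.209 and 0.232 CPM after 24 h against 6.01 and 13.0 CPM with DMSO in THP-1, and 6.32 and 1.57 CPM in the 24 h libraries of MV-4-11. The HMOX2 gene overlaps NMRAL1, so that reads in the shared stretch could go to either gene or to none.

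Partners and regulators of NRF2, 17 genes all tested, had more members higher than lower in each comparison of BRM014 with DMSO, though barely so in MOLM-13 at 72 h. At 24 h MOLM-13 had 8 higher and 4 lower (22.7% and 23.5% of all genes), with a median of 0.23. MV-4-11 had 10 higher and 3 lower (23.6% and 22.4%), with a median of 0.54. THP-1 had 9 higher and 4 lower (25.9% and 24.1%), with a median of 0.35. At 72 h MOLM-13 had 7 higher and 6 lower (30.3% and 29.4% of all genes), with a median of 0. MV-4-11 had 12 higher and 2 lower (28.4% and 26.1%), with a median of 0.80. THP-1 had 10 higher and 4 lower (30.9% and 28.0%), with a median of 0.47. NFE2L3, a relative of NFE2L2, rose over the lines by a mean of 1.19 ± 0.13 at 24 h (adjusted p = 1.3e-07) and 1.496 ± 0.13 at 72 h (adjusted p = 2.2e-09). MAFF, a small MAF partner, had 39.9 and 41.2 CPM with DB2313 against 1.19 and 1.53 CPM with DMSO in THP-1 (4.80 ± 0.33, adjusted p = 9.6e-11), and 30.8 and 24.8 CPM after 72 h of BRM014 against 4.56 and 4.89 CPM with DMSO in MV-4-11 (2.49 ± 0.28, adjusted p = 1.6e-07). AHR, the aryl hydrocarbon receptor, fell on average over the lines at 24 h (-1.30 ± 0.10, adjusted p = 3.1e-10). With PMA 8 of the 17 rose and 2 fell (18.9% and 17.1% of all genes), and with DB2313 13 rose and 2 fell (35.9% and 29.5%).

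Among glutathione genes more fell than rose in each line at 24 h. Of 26 tested, MOLM-13 had 5 higher and 13 lower, MV-4-11 had 4 higher and 10 lower, and THP-1 had 7 higher and 12 lower, with medians of -0.35, -0.24 and -0.20. Of 15 thioredoxin and peroxiredoxin genes, MOLM-13 had 3 higher and 8 lower, MV-4-11 had 4 higher and 6 lower, and THP-1 had 6 higher and 6 lower, with medians of -0.27, -0.23 and -0.10. GGT1, which splits extracellular glutathione, fell at 24 h on average over the lines (-1.66 ± 0.06, adjusted p = 1.3e-14), as did PRDX2, a peroxiredoxin (-1.25 ± 0.06, adjusted p = 2.8e-13). GSR, the glutathione reductase, rose in every line at 24 h, by a mean of 0.99 ± 0.04 (adjusted p = 5.1e-15). PRDX1 rose in MOLM-13 at 24 h (1.10 ± 0.07, adjusted p = 4.0e-11) and fell between 24 h and 72 h there (-1.40 ± 0.07, adjusted p = 2.1e-12), as NQO1 and TXNRD1 did. Of the glutathione genes at 72 h, MOLM-13 had 7 higher and 13 lower, MV-4-11 had 8 higher and 8 lower, and THP-1 had 8 higher and 13 lower. GPX4, which reduces lipid peroxides, rose over the lines by a mean of 1.83 ± 0.08 at 72 h (adjusted p = 1.1e-14). With PMA 10 glutathione genes rose and 1 fell (18.9% and 17.1% of all genes), and with DB2313 12 rose and 12 fell (35.9% and 29.5%). Of 8 tested genes for superoxide and peroxide removal, 5 rose and 3 fell at 72 h in MOLM-13 and in MV-4-11 and 5 rose and 2 fell in THP-1. With DB2313 2 of these 8 rose and 6 fell, among them SOD1 (-1.67 ± 0.11, adjusted p = 3.7e-11) and CAT, catalase (-1.55 ± 0.06, adjusted p = 7.5e-14). All 8 were higher in BRM014 over DB2313 at 72 h, where 30.4% of all genes were.

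SLC7A11 is also a target of ATF4, the transcription factor of the amino acid stress response, so genes of that response were counted beside it. Of 20 such genes none rose and 16 fell in MOLM-13 at 24 h, with a median of -1.40, while MV-4-11 had 5 higher and 4 lower and THP-1 had 8 higher and 9 lower. At 72 h MOLM-13 had 3 higher and 13 lower (median -1.70), MV-4-11 had 9 higher and 6 lower (median 0.35), and THP-1 had 6 higher and 10 lower (median -0.21). CHAC1, a glutathione-degrading enzyme and ATF4 target, had 0.0988 and 0.213 CPM after 72 h against 11.1 and 13.5 CPM with DMSO in MOLM-13 (-6.45 ± 0.60, adjusted p = 8.7e-09), and SLC7A5, an amino acid transporter, fell there (-4.70 ± 0.10, adjusted p = 1.4e-18). In MV-4-11 at 72 h DDIT3, a stress transcription factor, rose (2.54 ± 0.10, adjusted p = 3.9e-14). SLC7A11 was called higher at 72 h in all 3 lines, and the part of the ATF4 genes in its values was not tested.

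HMOX1 and several of its relatives are also macrophage genes, and markers of monocytes and macrophages moved with some of the results. Of 25 such markers 24 rose with PMA and 1 fell (18.9% and 17.1% of all genes). Their summed level was 16680 to 16970 CPM with PMA against 2746 to 2983 CPM with DMSO. With DB2313 14 rose and 5 fell (35.9% and 29.5% of all genes), at 2634 to 2712 CPM. With BRM014 in THP-1 5 rose and 11 fell at 24 h (25.9% and 24.1% of all genes), at 1151 to 1180 CPM. At 72 h 5 rose and 10 fell there (30.9% and 28.0%), at 1322 to 1398 CPM. The medians were -1.12 and -2.03 (-0.14 and -0.0018 with genes at 0 in a group set at their bound). In MOLM-13 the sum was 492 to 496 CPM at 24 h and 1594 to 1646 CPM at 72 h against 434 to 443 CPM with DMSO, and in MV-4-11 443 to 449 CPM at 24 h and 1192 to 1201 CPM at 72 h against 792 to 796 CPM with DMSO. Against DMSO, the summed markers with BRM014 were lower in THP-1 at both times and MV-4-11 at 24 h. The sums were higher in MOLM-13 at both times and MV-4-11 at 72 h, but the calls did not follow them. In MOLM-13 3 markers rose and 9 fell at 24 h (22.7% and 23.5% of all genes). At 72 h 7 rose and 7 fell there (30.3% and 29.4%). MV-4-11 had 2 higher and 11 lower at 24 h (23.6% and 22.4%), and 6 higher and 9 lower at 72 h (28.4% and 26.1%). Of the 25 markers 11 were at 0 in MOLM-13 at 72 h, 7 in MV-4-11 at 72 h and none in THP-1 with PMA. CSF1R, the receptor for the macrophage growth factor CSF1, fell with BRM014 on average over the lines (-4.62 ± 0.15 at 24 h, adjusted p = 6.5e-16). The part of these markers in the results with BRM014, PMA and DB2313 was not tested.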

How the data were processed

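The authors deposited whole-number counts of reads for every gene symbol, in a file for each library, and these were used as they stood. HISAT2 2.1.0, HTSeq, DESeq2 and the build hg38 appear in the submitters' processing notes. The role of each tool, the annotation and the strand setting are not given in the sources used here. Summary lines that name no gene were left out, and their no-feature entry held 12.03% to 19.2% of a library.

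All 22 libraries entered 1 edgeR 4.0.16 fit (R 4.3.3) with a coefficient per group, TMM scaling and a filter on low counts (filterByExpr, minimum count 10), which kept 16794 of 28063 genes. Contrasts were tested by quasi-likelihood F tests, with p-values adjusted over all genes by Benjamini-Hochberg and a threshold of 0.05. Standard errors are the log2 fold change over the root of F. Fits were tested on simulated data. CPM uses TMM-free totals of gene reads per library. Intervals are at 95%, and groups at 0 were bounded with 3 counts over the group. Such floors cover counting error only.

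No label states that replicate numbers pair libraries, so the fit had no block. Alternatives were other scalings (DESeq2 1.42.0 size factors, library size), DESeq2, other filters, a replicate block, fewer libraries and each library left out. Positions are from GENCODE v29, sequences from RefSeq.

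The 10 genes are named in every comparison. Of each list up to 3 called genes with the largest change per comparison could be named, and for HMOX1 the 5 genes with the highest r. The genes and lists were chosen with earlier results of these data known. The lists were other NRF2 targets, haem handling, NRF2 partners, glutathione, thioredoxin, superoxide and peroxide removal, ATF4 stress genes, and markers of macrophages, myeloid lines, erythroid, lymphoid and epithelial cells. Some genes stand in 2 lists.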

Additional observations from a re-analysis of the deposited data

Results flagged for a closer look

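The BRM014 effect differed between the 3 lines, by an edgeR F test of the differences between lines, for 8 of the 10 genes after 24 h and for 9 after 72 h. Over all genes tested this was so for 43.5% at 24 h and 52.9% at 72 h. Each gene has 3 log2 fold changes over DMSO, given first for MOLM-13, then for MV-4-11 and last for THP-1.

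After 24 h NQO1 had 2.76, 2.74 and 1.33 (adjusted p = 5.915e-09), TXNRD1 had 0.66, 0.64 and -0.46 (adjusted p = 1.92e-08), and KEAP1 had 0.67, 1.47 and -0.03 (adjusted p = 2.627e-07). GCLM had 0.40, 0.23 and -0.85 (adjusted p = 2.286e-06), and GCLC had 0.73, 0.46 and 0.07 (adjusted p = 0.00235). For NFE2L2 the values were 1.17, 1.85 and 0.78 (adjusted p = 0.0001128), for SLC7A11 0.45, 1.94 and 1.71 (adjusted p = 0.0001669), and for SRXN1 0.999, 0.84 and 0.12 (adjusted p = 0.001834).

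After 72 h HMOX1 had 6.14, 6.35 and 4.004 (adjusted p = 0.0003312), NQO1 had 0.24, 2.11 and 1.49 (adjusted p = 2.299e-09), and TXNRD1 had -0.60, 0.32 and -0.83 (adjusted p = 1.745e-08). NFE2L2 had 1.46, 2.45 and 0.78 (adjusted p = 2.707e-07), and KEAP1 had 0.34, 1.35 and 0.08 (adjusted p = 5.884e-07). For GCLC the values were 0.68, 0.19 and -0.21 (adjusted p = 8.428e-05), for GCLM -0.28, -0.11 and -0.88 (adjusted p = 0.0005907), for SRXN1 0.81, 1.03 and 0.19 (adjusted p = 0.002348), and for SLC7A11 1.30, 1.24 and 0.49 (adjusted p = 0.02626). THP-1 had the smallest of the 3 values for HMOX1, GCLM, GCLC, TXNRD1, SRXN1, SLC7A11, NFE2L2 and KEAP1 at 72 h, and MOLM-13 for NQO1. The part of the shared DMSO libraries and of the differing DMSO levels in these differences was not tested.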

How the results depend on the processing

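Of 140 fold changes of the 10 genes, 138 kept their direction and side of the threshold with DESeq2 size factors, 135 with DESeq2, 134 each with a minimum count of 50, no filter or a replicate block, and 124 with library size alone. With libraries of the same line 111 of 120 did, without the PMA and DB2313 libraries 107 of 110, and with 1 library left out 672 of 720. All fold changes of HMOX1 over DMSO kept theirs in all of these. The cause of the changed calls was not tested.

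Signs turned for NFE2L2 in THP-1 between 24 h and 72 h, from -0.001 to 0.022 with DESeq2 size factors and with DESeq2, 0.038 with library size and 0.0049 with no filter. TXNRD1 with PMA turned from 0.0076 to -0.076 with library size, -0.0077 with no filter, -0.019 with a minimum count of 50 and -0.017 with THP-1 libraries alone. Library size alone gave 0.018 for KEAP1 in THP-1 at 24 h, 0.0088 for GCLM averaged over the lines at 24 h, 0.016 for GCLC in MOLM-13 and 0.011 for GCLM in THP-1 between the times. This scaling put the median of all genes at 0.157 in MOLM-13 and 0.145 in THP-1 at 72 h, 0.105 and 0.179 over the lines at 24 h and 72 h, -0.102 with PMA and 0.212 with DB2313, against 0.136 with DB2313 under TMM.

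The 2 genes lower in MOLM-13 at 72 h became 1 with library size, a minimum count of 50, DESeq2 and the replicate block, where GCLM stood at -0.28 (adjusted p = 0.0532). BRM014 over DB2313 had 2 higher genes with no filter, where it had 1. Deviations of same-numbered replicates correlated at -0.023 to 0.085. With 2 libraries per group this cannot show whether same-numbered samples shared a culture or batch.

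With each library left out in turn, the genes lower in MOLM-13 at 72 h numbered 1, those higher in THP-1 at 72 h 3 to 5, those lower with PMA 1 to 2, and those lower in MV-4-11 between the times 3 to 4. Values that turned sign ranged from -0.15 to 0.044 for GCLC in MOLM-13 between the times, -0.049 to 0.25 for BACH1 in MOLM-13 at 72 h, and -0.0064 to 0.24 for BACH1 in MV-4-11 between the times. In THP-1 they ranged from -0.11 to 0.32 for SRXN1 and -0.077 to 0.026 for KEAP1 at 24 h. Between the times in THP-1 the ranges were -0.063 to 0.0048 for GCLM, -0.13 to 0.29 for SRXN1 and -0.10 to 0.087 for NFE2L2. With PMA TXNRD1 ranged from -0.064 to 0.074 and SRXN1 from -0.10 to 0.37, and with DB2313 SRXN1 from -0.053 to 0.13.

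Each group had 2 libraries, with 9 to 30 HMOX1 reads in a DMSO library. The labels give no time for the DMSO libraries, so BRM014 and time in culture cannot be told apart.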
